A study of Mus musculus with 20 samples.

Results

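MDL-800, a small molecule that activates the deacylase SIRT6, was compared with its vehicle in the nucleus pulposus of aged mice. The comparison used 10 of the 20 RNA-seq libraries of the study, all those whose deposited column name carries the nucleus pulposus tag: 5 from vehicle-treated and 5 from MDL-800-treated BL6 mice. Both groups were 24 months old at the end. They had received weekly intraperitoneal injections for 6 months from 18 months of age, of DMSO alone (vehicle) or of MDL-800 dissolved in DMSO. The tissue was dissected under a microscope, and each library was made from 50 ng of total RNA with removal of ribosomal RNA and 14 PCR cycles. The other 10 libraries came from the annulus fibrosus under the same treatments and are used here only beside a nucleus pulposus value. The labels do not say how many mice contributed to a library or whether each library is a separate mouse, so every p-value measures the spread between these libraries, part of which may be technical.

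The nucleus pulposus is the gel-like core of the intervertebral disc. Its cells descend from the notochord, express the transcription factor brachyury (T) and keratins of simple epithelia, lie in an avascular and low-oxygen tissue, and secrete aggrecan and type II collagen. SIRT6 uses NAD to remove acetyl groups from histone H3 on chromatin and is known for roles in DNA repair, glycolytic gene control and NF-kB signalling. A compound that activates the enzyme acts on the protein, so a change in Sirt6 RNA is not itself a measure of its activity.

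Markers of the labelled tissue were high in every library. The summed level of 12 nucleus pulposus markers was 25920 to 31025 FPKM under vehicle and 28148 to 33040 under MDL-800, against 2517 to 15173 in the annulus fibrosus libraries. Summed markers of annulus fibrosus (804 to 1588 FPKM under vehicle, 883 to 1380 under MDL-800), macrophages and osteoclasts (107 to 206 and 96.4 to 147) and red blood cells (49.2 to 186 and 30.1 to 219.8) overlapped between the groups. None of the markers in these lists was at 0 in all 10 libraries. Skeletal muscle markers reached 1919 FPKM in vehicle library 3 against 15.3 to 337 in the other 9 libraries, and vehicle library 6 was highest for neutrophil markers (3312 FPKM against 210.0 to 1821) and for B and plasma cell markers (956 against 62.0 to 320.2). In bulk tissue, fewer cells of a type and less RNA per cell cannot be told apart. Estimated depth was 15.7 to 22.4 M fragments under vehicle and 12.6 to 20.8 M under MDL-800.

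Vehicle libraries 1 and 2 stood apart from the other 8. In each library the deviation of a gene's log2 level from its mean over the 10 libraries was regressed on the GC content of the gene's exons, which gives a GC slope per 10 percentage points. The slope was -0.30, -0.30, 0.01, -0.02 and 0.03 in vehicle libraries 1, 2, 3, 5 and 6 and 0.07, 0.11, 0.11, 0.15 and 0.14 in MDL-800 libraries 15, 18, 19, 20 and 22. All later lists of 5 values keep this order of libraries. GC-rich genes thus read low in vehicle libraries 1 and 2 relative to every other library. The MDL-800 slopes also lay above those of the remaining 3 vehicle libraries, with no overlap. The mean slope differed by 0.228 between the groups (exact two-sided permutation test, p = 0.00794, or 0.0397 adjusted over 5 library measures), and by 0.106 without vehicle libraries 1 and 2 (exact p = 0.0179, the smallest that 3 against 5 libraries can give). The slope was chosen because earlier results of these data had shown it to separate the groups. Its p-values therefore describe that separation and are no independent test of it. The first 2 principal components set vehicle libraries 1 and 2 and vehicle library 6 apart. Because the slope moves with treatment, every fit was repeated without vehicle libraries 1 and 2 and with the GC trend of each library removed. For single genes these values are given where they changed a sign or moved a difference by over 1.5 times. For list medians they are given only in part, so a median printed alone may also move. With the GC trend removed, glycolysis went from 0.056 to -0.019 and DNA repair from -0.082 to -0.012. Without vehicle libraries 1 and 2, lysosome genes went from -0.033 to 0.043 and cholesterol synthesis from -0.071 to 0.027. Lost calls are given gene by gene for the removed GC trend and as a count for the omitted libraries. The part of GC content in each result was not tested beyond these values, and GC-related measurement and treatment cannot be told apart where they move together.

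**Figure D1:**
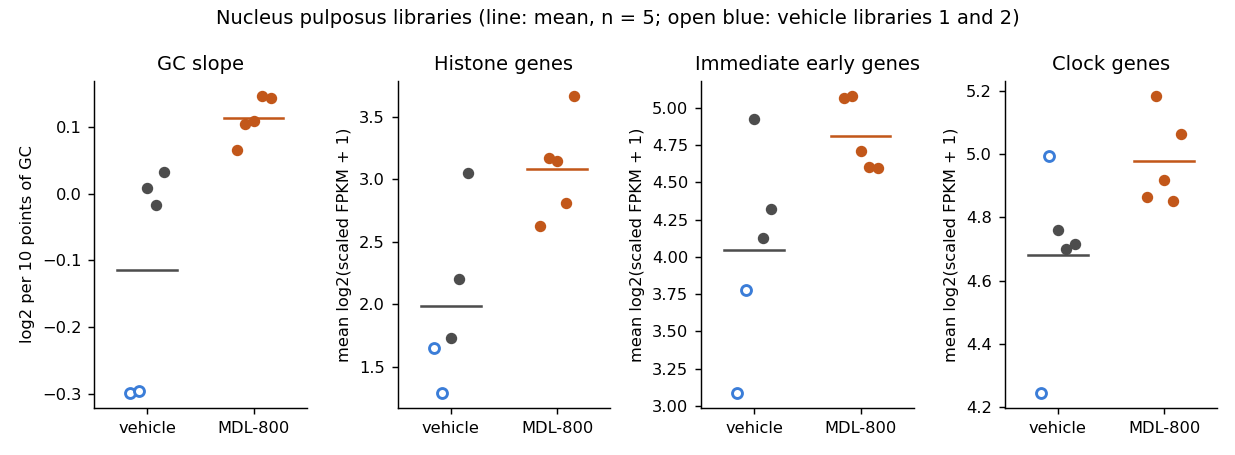
Each point is 1 nucleus pulposus library: the GC slope of its expression values (log2 per 10 percentage points of GC), and the mean log2(scaled FPKM + 1) of the replication-dependent histone genes, the immediate early genes and the clock genes. Vehicle libraries 1 and 2, drawn open, have the lowest GC slopes (-0.30), and the lowest histone means; lines are group means of 5 libraries.

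In the MDL-800 libraries of the nucleus pulposus a small set of genes was called higher, among them the metallothionein genes Mt1 and Mt2, Rplp2, Rpl29, Snhg8, Ubald2, Gadd45g and Chst12, and 3 pseudogenes were called lower. Most expressed genes differed little. Of 16383 genes tested with limma on log2(scaled FPKM + 1), 41 passed an adjusted p of 0.05, which is 0.25% of those tested: 38 higher (0.232%) and 3 lower (0.0183%) under MDL-800. All 41 had no overlap between the 5 vehicle and the 5 MDL-800 libraries, 34 were protein-coding and 21 differed by at least 1 on the log2 scale. With the GC trend removed, 23 genes passed (16 higher and 7 lower, 0.14%), 18 of them among the 41. Without vehicle libraries 1 and 2, 11 passed (6 higher and 5 lower, 0.0671%), 5 of them among the 41: Snhg8, Ubald2, Gm12480, Rps13-ps2 and Gm7332. Of the 38 genes called higher, 22 lost the call with the GC trend removed and 18 shrank by over 1.5 times; 35 lost it without vehicle libraries 1 and 2, where 0 shrank by as much. All 41 kept their sign and an unadjusted p under 0.05 without vehicle libraries 1 and 2, and in each of the 10 fits that left out 1 library. Calls were lost nevertheless. None of the 38 passed as higher once vehicle library 3 or MDL-800 library 22 was left out (limma; 1535 and 1299 genes were higher at an unadjusted p under 0.05), 7 genes in all passed without vehicle library 1, 5 without vehicle library 2, 4 without MDL-800 library 20, and 17 to 25 without vehicle library 5 or MDL-800 libraries 15, 18 or 19. Leaving out vehicle library 6 instead raised the count to 189. At an unadjusted p under 0.05, 1493 genes were higher (9.11%) and 818 lower (4.99%), while 574 genes had every MDL-800 library above every vehicle library (3.5%) and 164 had every one below (1%). With the GC trend removed, 791 were higher and 948 lower at that threshold (limma). Without vehicle libraries 1 and 2 the counts were 1127 and 601. The shares of 9.11% higher and 4.99% lower are those over all genes for every list count given below.

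Over the 13977 genes with a mean of at least 1 scaled FPKM, the log2 fold change had a median of -0.033, quartiles of -0.141 and 0.129, and a 5% to 95% range of -0.321 to 0.537. With all libraries the upper tail was the longer: 151 genes were at or above 1 and 80 at or below -1. With the GC trend removed these counts were 91 and 93, and without vehicle libraries 1 and 2 they were 83 and 115. The longer upper tail was thus not kept in either. With all libraries, differences under 0.5 in size made up 92.3% of the 13977 genes. The 95% interval of limma lay wholly within ±0.5 for 60.1% of them and within ±1 for 89.9%, with a median half-width of 0.291. Precision changed with level, from a median half-width of 0.385 at 1 to 2 FPKM to 0.233 at 50 to 100 FPKM. The vehicle libraries spread more widely than the MDL-800 libraries (median SD per gene of 0.224 against 0.173 on the log2 scale), and 0.157 without vehicle libraries 1 and 2.

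**Figure D2:**
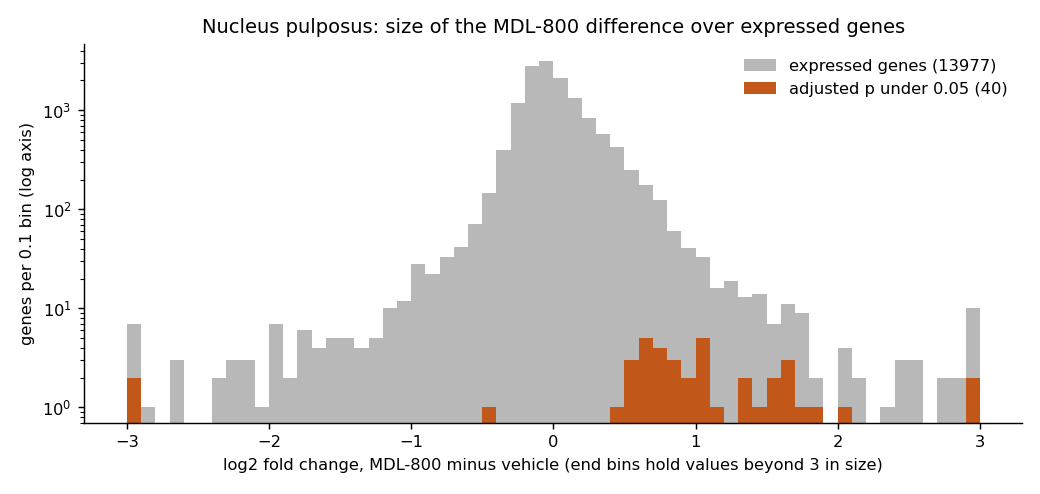
Number of genes (log axis) per 0.1 bin of the log2 fold change, MDL-800 minus vehicle, for the 13977 genes with a mean of at least 1 scaled FPKM (grey) and those of them with an adjusted p under 0.05 (orange). The bulk lies within ±0.5, and 37 of the orange genes lie above 0 and 3 below; values beyond 3 in size are counted in the end bins.

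The 2 main metallothionein genes rose together. Metallothioneins are small cysteine-rich proteins that bind zinc and copper; their genes are induced by zinc through the factor MTF-1, and by glucocorticoids and oxidants. Mt1 (chr8:94179082-94180327, mm10) stood at 135, 103, 152, 149 and 159 scaled FPKM under vehicle and 227, 289, 517, 322 and 439 under MDL-800, and every MDL-800 library lay above every vehicle library. The log2 fold change was 1.31 ± 0.21 (SE) (adjusted p = 0.0426), and 1.16 without vehicle libraries 1 and 2 (adjusted p = 0.157). Its neighbour Mt2 (chr8:94172664-94173568) read 37.1, 24.9, 26.6, 42.1 and 63.6 scaled FPKM under vehicle and 111, 125, 247, 98.6 and 239.8 under MDL-800, a log2 fold change of 2.02 ± 0.32 (SE) (adjusted p = 0.0411). MDL-800 libraries 19 and 22 were the highest for both genes. Without vehicle libraries 1 and 2, Mt2 differed by 1.85 (adjusted p = 0.157), so neither gene kept its call there while the size changed little. With the GC trend removed the differences were 1.23 (adjusted p = 0.0548) and 1.97 (adjusted p = 0.0497). Zinc transporter genes gave no call. Of 14 genes of the metallothionein and zinc transport list, Mt1 and Mt2 were called higher and none lower. The metallothionein gene Mt3 was also tested and not called. In the list, 2 more genes had an unadjusted p under 0.05 with lower values, and the list median was -0.02, against -0.03 over all genes. Slc30a5, a zinc exporter of the Golgi, had the smallest p of these, with 11.9, 11.2, 14.9, 13.1 and 13.4 scaled FPKM under vehicle and 11.9, 10.9, 10.6, 10.4 and 10.3 under MDL-800 (log2 fold change -0.23, adjusted p = 0.264; -0.13 with the GC trend removed). The annulus fibrosus log2 fold changes were 0.71 for Mt1 and 0.99 for Mt2, neither called.

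The start regions of both genes hold metal response elements, the short motif bound by MTF-1, and are shown because these were the leading coordinated rises. Each window runs from 200 bases before to 30 bases after the RefSeq transcription start (GRCm38.p6), written 5′ to 3′ on the gene's strand. Gene positions given above are from GENCODE M21, which can place the start elsewhere. The Mt2 window ends at 94172647, before the GENCODE start of Mt2 at 94172664. Capitals mark matches to TGCACNC or TGCGCNC on either strand.
Mt1 promoter, chr8:94178889-94179118, plus strand: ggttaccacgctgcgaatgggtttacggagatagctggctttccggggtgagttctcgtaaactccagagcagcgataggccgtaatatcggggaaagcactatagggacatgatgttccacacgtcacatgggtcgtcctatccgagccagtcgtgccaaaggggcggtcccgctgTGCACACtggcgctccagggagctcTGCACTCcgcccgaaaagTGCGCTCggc
Mt2 promoter, chr8:94172418-94172647, plus strand: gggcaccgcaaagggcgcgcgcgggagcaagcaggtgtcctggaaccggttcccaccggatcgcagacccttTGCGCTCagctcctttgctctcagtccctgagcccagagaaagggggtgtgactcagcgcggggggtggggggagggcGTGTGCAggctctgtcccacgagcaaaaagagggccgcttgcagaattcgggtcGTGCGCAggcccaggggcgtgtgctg
Both windows hold 3 matches. At least 3 matches occur in 1.28% of 32851 RefSeq promoter windows of this length and in 2.06% of 14101 windows of genes tested here; at least 1 occurs in 21.01% and 28.8%. Among the zinc transporter genes of the list with a window, Slc30a1, Slc39a13 and Slc30a5 had 1 match and the others none. Mt3, another metallothionein gene of the list, and Mtf1, the gene of MTF-1, also had none. A match describes the letters in the window and is no measure of binding.

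**Figure D3:**
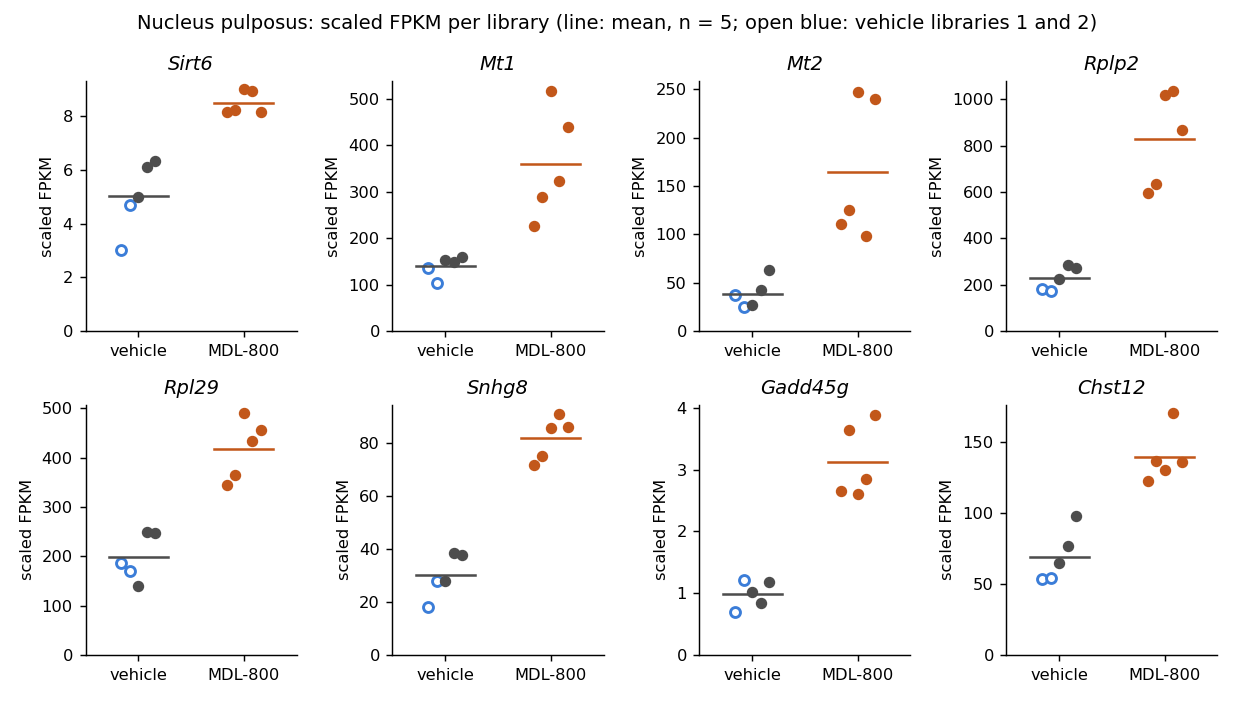
Scaled FPKM of 8 genes in each nucleus pulposus library, with the mean of 5 libraries per group as a line and vehicle libraries 1 and 2 drawn open. The 5 MDL-800 libraries lie above all vehicle libraries in every panel; Sirt6 is the 1 gene shown that did not pass the adjusted threshold.

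Sirt6 itself was higher in every MDL-800 library but did not pass the threshold. Its values were 3.00, 4.70, 5.00, 6.11 and 6.34 scaled FPKM under vehicle and 8.14, 8.21, 9.00, 8.94 and 8.14 under MDL-800, with vehicle library 1 the lowest. The log2 fold change was 0.68 ± 0.15 (SE) (adjusted p = 0.082; exact two-sided permutation p = 0.00794 for the single gene, the smallest that 5 against 5 libraries can give). It was 0.48 without vehicle libraries 1 and 2 and 0.31 with the GC trend removed. Among the other sirtuins, Sirt2, a mainly cytoplasmic deacetylase, read 45.3, 35.2, 34.03, 42.9 and 47.6 scaled FPKM under vehicle and 47.4, 50.4, 49.6, 59.05 and 56.6 under MDL-800 (log2 fold change 0.36, adjusted p = 0.157; 0.21 with the GC trend removed), with overlap. Sirt3, the main mitochondrial deacetylase, differed by 0.36 (adjusted p = 0.213). None of the 7 sirtuin genes was called, 3 were higher at an unadjusted p under 0.05, and their median was 0.21 (0.05 with the GC trend removed). For the 15 genes of NAD synthesis and use the median was -0.05, with none called and 2 higher at an unadjusted p under 0.05. Parp3, an ADP-ribosyltransferase of the DNA break response, had the smallest p, with 20.5, 22.1, 18.7, 25.9 and 30.5 scaled FPKM under vehicle and 30.98, 36.7, 34.4, 40.5 and 31.1 under MDL-800 and no overlap (log2 fold change 0.56, adjusted p = 0.09).

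Some ribosomal protein genes rose, while the median of the class was 0.00. Rplp2, which encodes an acidic protein of the ribosomal stalk, stood at 182, 172, 225, 286 and 272 scaled FPKM under vehicle and 595, 635, 1019, 1035 and 866 under MDL-800. Every MDL-800 library exceeded the highest vehicle library, and the log2 fold change was 1.85 ± 0.20 (SE) (adjusted p = 0.013). It was 1.63 without vehicle libraries 1 and 2 (adjusted p = 0.0508) and 1.78 with the GC trend removed, where it still passed. The gene contains a small nucleolar RNA gene, Snora52, on the same strand, so reads of the 2 may be mixed in its value. Rpl29, a protein of the large subunit, read 186, 171, 139, 249 and 247 scaled FPKM under vehicle and 345, 365, 489.7, 434 and 456 under MDL-800 (log2 fold change 1.09 ± 0.17 (SE), adjusted p = 0.0411; 1.02 without vehicle libraries 1 and 2; 0.83 with the GC trend removed, adjusted p = 0.085). Rps29, a protein of the small subunit, read 499, 457, 636, 1202 and 1126 scaled FPKM under vehicle and 1916, 1894, 2306, 2311 and 2355 under MDL-800. It had no overlap either, at 1.57, and fell short of the threshold (adjusted p = 0.0519). Of 84 cytosolic ribosomal protein genes, Rplp2 and Rpl29 were the 2 called (0.232% of all genes were called higher). At an unadjusted p under 0.05, 21 were higher (25.0%, against 9.11% of all genes) and 3 lower (3.6%, against 4.99%). The median was 0.00 with an upper quartile of 0.35. Many of these genes have near-identical pseudogenes, and the counting rule for shared reads is not given in the sources used here, so their levels are uncertain. The 78 mitochondrial ribosomal protein genes had a median of -0.04 and none was called, with 4 higher and 5 lower at an unadjusted p under 0.05. Mrpl14 had the smallest p, at a log2 fold change of 0.96 (adjusted p = 0.0743; 0.61 with the GC trend removed and 0.63 without vehicle libraries 1 and 2).

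Of the noncoding RNA genes called, Snhg8 and Rpph1 are described first. Snhg8, a long noncoding RNA that hosts the small nucleolar RNA Snora24, stood at 18.03, 27.98, 27.9, 38.6 and 37.6 scaled FPKM under vehicle and 71.8, 75.1, 85.8, 90.9 and 86.2 under MDL-800. No vehicle library reached the lowest MDL-800 library, the log2 fold change was 1.46 ± 0.18 (SE) (adjusted p = 0.0166), and it was also called without vehicle libraries 1 and 2 (1.23, adjusted p = 0.0154). Rpph1, the RNA subunit of RNase P that trims the 5′ end of transfer RNAs, read 123, 94.97, 181, 452 and 306 scaled FPKM under vehicle and 817, 1434, 3087, 2398 and 1621 under MDL-800. Its log2 fold change was 3.10 ± 0.46 (SE) (adjusted p = 0.036) and 2.53 without vehicle libraries 1 and 2. The 319 nt gene lies within Ccnb1ip1 on the same strand. Among protein-coding genes with RNA-binding products, Cherp, a protein linked to splicing, rose by 0.71 (adjusted p = 0.0411; 0.45 with the GC trend removed, adjusted p = 0.085), and Pcbp4, a poly(C)-binding protein, by 0.44 (adjusted p = 0.0426). The Pcbp4 difference was 0.00 with the GC trend removed. Splicing factors as a group moved little: none of 44 was called, 6 were higher and 7 lower at an unadjusted p under 0.05, and the median was -0.08. Srsf6, an SR protein, had every MDL-800 library below every vehicle library, at 45.9, 45.3, 52.7, 46.1 and 49.9 scaled FPKM under vehicle and 38.8, 42.4, 39.01, 38.2 and 37.2 under MDL-800 (log2 fold change -0.29, adjusted p = 0.0787).

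Small nuclear, small nucleolar and Cajal body RNAs gave lower values as classes, with no gene called. The median log2 fold change was -0.72 over 42 spliceosomal-type small nuclear RNA genes (17 lower and 2 higher at an unadjusted p under 0.05), -0.61 over 51 small nucleolar RNA genes (12 lower and 1 higher) and -0.49 over 9 Cajal body RNAs. Over all genes tested, 4.99% were lower and 9.11% higher at that threshold. Without vehicle libraries 1 and 2 the medians were -0.82, -0.55 and -0.55, and in the annulus fibrosus they were -0.93, -0.70 and -0.87. Some of these genes are copies that share 1 value: the 42 small nuclear RNA genes held 28 distinct sets of values. Other small RNA classes were not lower: medians were -0.01 over 63 microRNA genes (13 higher and 4 lower) and -0.02 over 48 genes classed as miscellaneous RNA (3 and 4). Annotated small RNAs of all kinds, Rpph1 among them, made up 10.35% to 27.47% of the summed FPKM under vehicle. Under MDL-800 the range was 17.11% to 23.55% (exact two-sided permutation p = 0.492). In genes of 400 to 1200 nt the deposited FPKM fitted a transcript length reduced by 180 to 190 nt. How shorter transcripts were handled is not known. Values of transcripts near or under 200 nt are therefore taken as uncertain, and no single small RNA is described here. For genes under 300 nt the median half-width of the 95% interval was 1.145, against 0.291 over all expressed genes.

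Histone genes formed the gene family with the largest median difference. Replication-dependent histone genes encode the bulk of the chromatin proteins and are expressed mainly in S phase. Their mRNAs end in a stem-loop in place of a poly(A) tail. Of 57 tested, 54 had a log2 fold change above 0, against 42.6% of all genes. The median was 1.24 with quartiles of 0.41 and 1.62. The 2 called genes were Hist1h2ak and Hist1h2af (0.232% of all genes were called higher). At an unadjusted p under 0.05, 35 were higher (61.4%, against 9.11% of all genes) and none lower. For 11, every MDL-800 library lay above every vehicle library (19.3%, against 3.5% of all genes). The median was 0.82 with the GC trend removed, 0.71 without vehicle libraries 1 and 2, and 0.71 in the annulus fibrosus. It was 0.299 with the GC slope as a covariate, and -0.205 with that covariate and without vehicle libraries 1 and 2. By type, the medians were 1.67 for 13 H4 genes, 1.44 for 11 H3 genes, 1.16 for 11 H2A genes, 0.92 for 17 H2B genes and 0.46 for 5 linker H1 genes.

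Single histone genes showed the spread behind these medians. Hist1h4d, an H4 gene, stood at 6.99, 4.54, 17.2, 34.2 and 57.02 scaled FPKM under vehicle and 78.5, 91.7, 232, 126 and 136 under MDL-800 (log2 fold change 2.83 ± 0.60 (SE), adjusted p = 0.0743; 1.90 without vehicle libraries 1 and 2). The 5 MDL-800 values lay above all vehicle values, and vehicle libraries 1 and 2 were the lowest. Hist1h4f, another H4 gene, read 0.782, 0.330, 1.06, 3.22 and 4.56 scaled FPKM under vehicle and 5.87, 15.97, 23, 12.8 and 21.01 under MDL-800 (log2 fold change 2.57 ± 0.45 (SE), adjusted p = 0.0519). Here too the groups did not overlap and the threshold was missed. The called H2A genes were at the edge of detection, Hist1h2ak at 0.257, 0, 0, 0 and 0.296 scaled FPKM under vehicle and 1.69, 2.92, 1.58, 0.963 and 2.42 under MDL-800 (adjusted p = 0.0218) and Hist1h2af at 0, 0, 0, 0 and 0 scaled FPKM under vehicle and 0.418, 1.26, 0.565, 1.27 and 1.59 under MDL-800 (adjusted p = 0.0426); the latter was listed at 0 in every vehicle library, so no fold is given. Removal of the GC trend left differences of 0.58 and 0.19, and neither was called (adjusted p = 0.473 and 0.854). Both lie opposite an annotated gene on the other strand. Hist1h1c, the most abundant histone transcript in the list, read 340.1, 346, 246, 215 and 309.5 scaled FPKM under vehicle and 286, 317, 553, 377 and 498 under MDL-800 with overlap (log2 fold change 0.46, adjusted p = 0.351). Hist1h2bc, the most abundant H2B transcript, differed by 0.55 (adjusted p = 0.114) with no overlap. The mean log2 level over the list was 1.65, 1.29, 1.73, 2.20 and 3.05 in the vehicle libraries and 2.63, 3.17, 3.14, 2.81 and 3.67 in the MDL-800 libraries, and vehicle library 6 lay within the MDL-800 range. Of 19 proliferation genes none was called, 1 was lower at an unadjusted p under 0.05, and the median was -0.12.

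The stem-loop of these mRNAs is printed for 4 of the genes because most of the listed genes carry it in an annotated transcript. The letters are from the annotated transcripts (GENCODE M21 on mm10), 5′ to 3′, with the 16 bases of the stem-loop match (sense strand) in capitals.
Hist1h4d: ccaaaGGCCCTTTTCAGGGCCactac
Hist1h4f: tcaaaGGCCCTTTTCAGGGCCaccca
Hist1h2ap: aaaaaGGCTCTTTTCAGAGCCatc
Hist2h2aa1: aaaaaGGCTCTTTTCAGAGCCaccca
The H4 genes shown carry the GGCCC stem and the H2A genes the GGCTC stem. The motif was in a transcript of 38 of the 57 histone genes (66.7%) and of 1 of 13427 other protein-coding genes tested (0.007%), the histone variant gene H2afx.
In a split made after the values were seen, 19 histone genes whose annotated transcript ends within 100 nt of the stem-loop had a median log2 fold change of 1.39, 19 whose transcript runs at least 100 nt past it had 0.46, and 19 without a match had 1.28. The first set includes Hist1h4f and the second Hist1h4d, whose own differences were 2.57 and 2.83.

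Immediate early genes, which encode factors induced within minutes of stress or growth factor signals, had mostly higher values, and none passed the threshold. Of 22 genes, 21 had a log2 fold change above 0 (95.5%, against 42.6% of all genes), and the median was 0.66. At an unadjusted p under 0.05 (limma), 7 were higher (31.8%, against 9.11% of all genes) and none lower. The median was 0.27 without vehicle libraries 1 and 2, 0.42 with the GC trend removed and 0.036 with the GC slope as a covariate. The list mean was 3.09, 3.78, 4.93, 4.13 and 4.32 under vehicle and 5.06, 5.08, 4.71, 4.60 and 4.60 under MDL-800, and vehicle library 3 lay within the MDL-800 range. Junb, an AP-1 subunit, stood apart from the rest of the list, at 1.54, 3.10, 13.5, 13.6 and 12.3 scaled FPKM under vehicle and 43.9, 59.2, 43, 53.1 and 55.9 under MDL-800. The log2 fold change was 2.72 ± 0.47 (SE) (adjusted p = 0.0519). Without vehicle libraries 1 and 2, where the vehicle values were closest together, it was 1.87 and passed (adjusted p = 0.00112). Fos, its partner in AP-1 and the most abundant gene of the list, read 19.98, 27.7, 361, 137 and 146 scaled FPKM under vehicle and 405, 196, 174, 161 and 80.2 under MDL-800. The groups overlapped, and the difference of 1.08 became -0.12 without vehicle libraries 1 and 2. Ier2, an early response nuclear protein, read 2.43, 3.23, 29.1, 20.1 and 19.4 scaled FPKM under vehicle and 48.3, 38.7, 27.3, 30.01 and 31.3 under MDL-800 (log2 fold change 1.64, adjusted p = 0.231; 0.59 without vehicle libraries 1 and 2). Zfp36, which destabilises cytokine mRNAs, differed by 0.73 (adjusted p = 0.283; 0.39 without vehicle libraries 1 and 2).

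Clock genes showed a smaller difference in the same direction. Of 18, 14 were above 0 (77.8%, against 42.6% of all genes) and none was called. At an unadjusted p under 0.05 (limma), 2 were higher, a share of 11.1% and near the 9.11% of all genes. The median was 0.32 (0.22 without vehicle libraries 1 and 2, and 0.121 with the GC slope as a covariate). Per1, a repressor of the clock loop that also responds to glucocorticoids, read 23.2, 55.2, 44.96, 41.01 and 39.96 scaled FPKM under vehicle and 53.3, 119.6, 59.1, 65.9 and 131 under MDL-800, with MDL-800 libraries 18 and 22 the highest and overlap between groups (log2 fold change 1.00, adjusted p = 0.153; 0.64 with the GC trend removed). Per2, its paralog, differed by 0.68 (adjusted p = 0.263; 0.33 without vehicle libraries 1 and 2) and Hlf, a clock output factor, by 0.38 (adjusted p = 0.448; 0.25 without vehicle libraries 1 and 2). The labels give no time of day of tissue collection.

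Regulators of stress and of growth factor signals were among the called genes. Gadd45g, a stress-inducible protein that binds kinases of the MAP kinase and cell cycle pathways, rose from a low level: 0.697, 1.21, 1.02, 0.848 and 1.19 scaled FPKM under vehicle and 2.65, 3.64, 2.61, 2.85 and 3.89 under MDL-800. The log2 fold change was 1.05 ± 0.13 (SE) (adjusted p = 0.0166), with no overlap, and 1.02 without vehicle libraries 1 and 2. It was 0.62 with the GC trend removed and was not called (adjusted p = 0.138). Its paralog Gadd45b read 18.4, 35.9, 19.03, 17.6 and 17.4 scaled FPKM under vehicle and 23.4, 41.3, 26.6, 34.8 and 59.9 under MDL-800 with overlap (0.73, adjusted p = 0.244), vehicle library 2 lying within the MDL-800 range. Sik1, a kinase of the CREB-linked feedback on gene activation, stood at 43.6, 33.6, 37.2, 33.03 and 37.9 scaled FPKM under vehicle and 52.04, 63.9, 54.3, 66.8 and 67.3 under MDL-800 (log2 fold change 0.70 ± 0.10 (SE), adjusted p = 0.036; 0.73 without vehicle libraries 1 and 2; 0.53 with the GC trend removed, adjusted p = 0.0957). Ltbp3, which holds latent TGF-beta in the matrix, read 11.4, 9.16, 12.3, 10.2 and 14.01 scaled FPKM under vehicle and 17.1, 21.1, 20.6, 21.7 and 19.9 under MDL-800 (log2 fold change 0.77 ± 0.11 (SE), adjusted p = 0.036). Pmepa1, a TGF-beta target that dampens SMAD signalling, read 10.5, 7.20, 12, 7.97 and 13.3 scaled FPKM under vehicle and 20.3, 21.6, 21.8, 22.8 and 20.1 under MDL-800 (log2 fold change 1.03 ± 0.15 (SE), adjusted p = 0.036). In both, all MDL-800 libraries were above all vehicle libraries, and both calls were lost with the GC trend removed, at 0.33 for Ltbp3 (adjusted p = 0.265) and 0.66 for Pmepa1 (adjusted p = 0.085). Of 34 TGF-beta and BMP genes, Ltbp3 was the 1 called, and the median was -0.01. At an unadjusted p under 0.05, 4 were higher (11.8%, against 9.11% of all genes) and 1 lower (2.9%, against 4.99%). Id3, a BMP-responsive inhibitor of bHLH factors, had no overlap, at 16.3, 12.98, 10.3, 10.5 and 12.6 scaled FPKM under vehicle and 20.02, 17.8, 29.1, 21.1 and 22.3 under MDL-800 (0.77, adjusted p = 0.0637).

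In Wnt signalling, Dvl2, which relays signals from Frizzled receptors, rose: 8.37, 8.12, 9.49, 10.4 and 10.6 scaled FPKM under vehicle and 14.3, 13.8, 13.3, 13.7 and 14.6 under MDL-800 (log2 fold change 0.53 ± 0.09 (SE), adjusted p = 0.0426; 0.29 with the GC trend removed, adjusted p = 0.113). Lzts2, a leucine zipper protein, rose by 1.05 (adjusted p = 0.0426), from a mean of 6.39 to 13.9 FPKM; with the GC trend removed it was 0.54 and still called. Of 35 Hedgehog, Wnt and Notch genes in the list none was called, 7 were higher and 1 lower at an unadjusted p under 0.05, 6 had every MDL-800 library above every vehicle library (17.1%, against 3.5% of all genes), and the median was 0.06 (0.00 with the GC trend removed). Notch1, a Notch receptor, read 5.67, 6.82, 8.05, 7.44 and 8.02 scaled FPKM under vehicle and 10.8, 14.5, 9.35, 11.3 and 11.8 under MDL-800 (0.61, adjusted p = 0.0743; 0.34 with the GC trend removed). Fzd2, a Frizzled receptor, read 3.23, 4.05, 6.24, 5.58 and 4.73 scaled FPKM under vehicle and 7.78, 7.85, 7.68, 10.6 and 9.00 under MDL-800 (0.75, adjusted p = 0.0743), and the ligand gene Wnt11 differed by 0.78 (adjusted p = 0.101; 0.35 with the GC trend removed). These 3 had no overlap between groups and missed the threshold.

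The remaining called genes spanned several functions. Ubald2 stood at 8.62, 10.7, 17.7, 16.9 and 19.1 scaled FPKM under vehicle and 35.9, 48.8, 42.9, 51.6 and 49.3 under MDL-800. It had the smallest adjusted p of the protein-coding genes with the GC trend removed, its log2 fold change was 1.63 ± 0.21 (SE) (adjusted p = 0.0166), and it passed without vehicle libraries 1 and 2 (1.30, adjusted p = 0.0123). Nucb1, a calcium-binding protein of the Golgi, read 126, 129.9, 112, 123 and 134 scaled FPKM under vehicle and 168, 192, 198, 204 and 184 under MDL-800 (log2 fold change 0.59 ± 0.07 (SE), adjusted p = 0.0166; 0.62 without vehicle libraries 1 and 2; 0.34 with the GC trend removed, adjusted p = 0.223). Among DNA-binding factors, Zfp64 rose by 0.86, Nfix, a nuclear factor I protein, by 0.63, Zbtb4, a zinc finger repressor that binds methylated DNA, by 0.56, and Gse1, a component of histone demethylase complexes, by 0.90. With the GC trend removed these 4 were 0.57, 0.36, 0.12 and 0.50, and Nfix and Zbtb4 were not called (adjusted p = 0.0621 and 0.608). Among membrane and trafficking genes, the rises were 1.69 for Il3ra (the interleukin-3 receptor alpha chain, 1.10 to 5.32 FPKM), 0.95 for Hip1r (a clathrin and actin linker), 0.79 for Cldn19 (a tight junction claudin), and 1.14 for Nyap1 (an adaptor of phosphoinositide 3-kinase). They were 1.05, 0.72, 0.58 and 0.64 with the GC trend removed, of which Cldn19 was not called (adjusted p = 0.0704). Acot8, a peroxisomal thioesterase, rose by 1.00 from 3.60 to 8.09 FPKM, and Rad23b, a partner of the DNA damage sensor XPC, by 0.66 from 47.5 to 74.9 FPKM (0.69 with the GC trend removed, adjusted p = 0.0535). Also called higher were Pigyl (1.51), 2200002D01Rik (1.56), Npdc1 (0.81), Fbrs (0.66), Ttc28 (0.72), the envoplakin gene Evpl (0.66, under 5 FPKM in both groups), Gm42791 (1.76) and the noncoding Gm12480 (1.62). With the GC trend removed, Gm42791 and Gm12480 stayed called, and the other 6 did not: Pigyl was at 1.19, 2200002D01Rik at 1.30, Npdc1 at 0.46, Fbrs at 0.26, Ttc28 at 0.52 and Evpl at 0.21. The median GC content of the exons was 58.5% over the genes called higher, against 50.2% over all genes tested. Of the 41 called genes 12 overlapped an annotated gene on the same strand and 18 on the opposite strand. Such overlaps were not counted over all genes tested, so these counts are a limit on the single values and no trait of the called genes.

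The 3 genes that fell were processed pseudogenes, and a pseudogene, Gm14303, had the largest rise. Rps13-ps2 (mean 148 FPKM under vehicle, adjusted p = 4.03e-11) and Gm7332 (mean 14.1, adjusted p = 0.00267) were above 0 in each vehicle library and at exactly 0 in each MDL-800 library. Gm5601 read 44.1, 40.1, 43.5, 42.5 and 44.7 scaled FPKM under vehicle and 33.2, 33.4, 27.5, 29.5 and 27.8 under MDL-800, a fall of 0.49 ± 0.07 (SE) on the log2 scale (adjusted p = 0.036; -0.43 with the GC trend removed, adjusted p = 0.0704). Gm14303 is 171 nt long; 4 vehicle libraries had it at 0 and vehicle library 6 at 48.4 FPKM, against a mean of 457 under MDL-800 (adjusted p = 0.0206). No fold is given against a group listed at 0. Copies of expressed genes take reads by the counter's rule for shared reads, so these values are uncertain as levels of the loci themselves. Gm5601 is annotated as transcribed; over the 488 processed pseudogenes not annotated so, 1 rose, 2 fell and the median was -0.02.

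Matrix and identity genes of the nucleus pulposus yielded 1 called gene, a sulfation enzyme. Chst12, which adds 4-O-sulfate to chondroitin chains, stood at 53.4, 54.1, 65.1, 76.5 and 97.9 scaled FPKM under vehicle and 123, 137, 130.4, 171 and 136 under MDL-800. The log2 fold change was 1.02 ± 0.16 (SE) (adjusted p = 0.0411), with no overlap, and 0.81 without vehicle libraries 1 and 2 (adjusted p = 0.11). Of 26 genes of glycosaminoglycan synthesis and sulfation, Chst12 was the 1 called, and the median was -0.08. At an unadjusted p under 0.05, 5 were higher (19.2%, against 9.11% of all genes) and 6 lower (23.1%, against 4.99%). Only 30.8% of the list was above 0, against 42.6% of all genes, and 1 gene had every MDL-800 library below every vehicle library. The members named here were picked by smallest p and all rose, so they do not stand for the list. Chpf, a chondroitin polymerising factor, read 1.54, 1.56, 3.62, 3.77 and 3.86 scaled FPKM under vehicle and 5.62, 6.26, 9.83, 9.53 and 8.73 under MDL-800 (1.25, adjusted p = 0.0637; 0.69 with the GC trend removed), and B3gat3, which completes the linker tetrasaccharide, differed by 0.70 (adjusted p = 0.101; 0.23 with the GC trend removed and 0.45 without vehicle libraries 1 and 2); both had no overlap. The core matrix genes differed in no single direction. Acan, the gene of aggrecan, read 3297, 2261, 2001, 1676 and 1956 scaled FPKM under vehicle and 2096, 2717, 1889, 3118 and 2052 under MDL-800 (log2 fold change 0.10 ± 0.21 (SE), adjusted p = 0.885; 0.02 with the GC trend removed and 0.32 without vehicle libraries 1 and 2), with full overlap. Col2a1, type II collagen, read 231, 111, 128, 86.95 and 114 scaled FPKM under vehicle and 209, 244, 175, 289 and 149 under MDL-800 (0.71, adjusted p = 0.237; 0.23 with the GC trend removed), vehicle library 1 lying within the MDL-800 range. Col11a2, a chain of the minor fibrillar collagen XI, had no overlap, at 16.04, 11.05, 23.1, 24.98 and 32.8 scaled FPKM under vehicle and 35.9, 33.5, 67.5, 50.2 and 46.7 under MDL-800 (1.12, adjusted p = 0.101; 0.52 with the GC trend removed and 0.74 without vehicle libraries 1 and 2), while Col11a1 of the same fibril differed by -0.35 (adjusted p = 0.311). For the 16 cartilage matrix genes the median was 0.27 (0.03 with the GC trend removed), with none called, 2 higher and 1 lower at an unadjusted p under 0.05. Medians were 0.04 for 17 other collagens, -0.04 for 11 small leucine-rich proteoglycans and -0.02 for 23 matrix proteases and inhibitors. None of these was called either, with 1, 1 and 3 genes higher and 0 lower at an unadjusted p under 0.05. Adamts2, the procollagen N-proteinase, had no overlap, at 14.4, 12.6, 12.3, 12.8 and 13.4 scaled FPKM under vehicle and 16.5, 21.1, 16.98, 22.1 and 17.4 under MDL-800 (0.48, adjusted p = 0.0698).

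Of 11 nucleus pulposus markers tested, none was called, 3 were higher at an unadjusted p under 0.05 with no overlap, and the median was 0.00. These 3 were T, Krt19 and Krt8. Over all genes tested, 9.11% were higher at that threshold and 3.5% had every MDL-800 library above every vehicle library. T read 1193, 1203, 1254, 1701 and 1641 scaled FPKM under vehicle and 1849.6, 1780.1, 1994, 2328 and 2011 under MDL-800 (0.52, adjusted p = 0.138). Krt19, a keratin of simple epithelia, read 742, 640.4, 1379, 1389 and 1442 scaled FPKM under vehicle and 1710.4, 1689, 2011, 2355 and 2046 under MDL-800 (0.88, adjusted p = 0.141; 0.47 without vehicle libraries 1 and 2). Vehicle libraries 1 and 2 held the lowest values of both. Krt8, the keratin that pairs with others of simple epithelia, differed by 0.39 (adjusted p = 0.12; 0.16 with the GC trend removed). Among 13 hypertrophy and mineral genes none was called, 3 were higher and 1 lower at an unadjusted p under 0.05, and the median was -0.07 (-0.26 with the GC trend removed). Pth1r, the receptor of parathyroid hormone and its related peptide, had no overlap, at 53.9, 44.3, 44.3, 56.4 and 62.5 scaled FPKM under vehicle and 83.9, 63.4, 89.8, 82.8 and 102 under MDL-800 (0.68, adjusted p = 0.0722; 0.32 with the GC trend removed).

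Genes of senescence and inflammation gave no called gene apart from Gadd45g. Of 18 senescence and arrest genes, 2 were higher and none lower at an unadjusted p under 0.05, and the median was 0.13 (0.02 with the GC trend removed). Cdkn1a and Cdkn2a, the genes of the cell cycle inhibitors p21 and p16, differed by 0.29 (adjusted p = 0.728; -0.10 without vehicle libraries 1 and 2) and 0.31 (adjusted p = 0.438; -0.03 with the GC trend removed; 0.16 without vehicle libraries 1 and 2); both were picked for their standing as senescence markers and lie outside the naming rule. Over 21 secreted senescence factors the median was -0.06, with 3 higher and 2 lower at an unadjusted p under 0.05. Mif, a macrophage-regulating cytokine, read 271, 251, 530.1, 596 and 509 scaled FPKM under vehicle and 729.9, 791, 1225, 1039 and 1056 under MDL-800 with no overlap (1.23, adjusted p = 0.0756; 0.75 with the GC trend removed and 0.80 without vehicle libraries 1 and 2), and Ccl2, a monocyte chemokine, differed by -0.39 (adjusted p = 0.291) at levels of 0.429, 0.217, 0.536, 0.878 and 1.01 FPKM under vehicle. Over 21 NF-kB genes the median was 0.01, with 5 higher and 1 lower at an unadjusted p under 0.05. Inhibitors of the pathway held the smallest p-values: Tnip1 differed by 0.55 (adjusted p = 0.0905; 0.29 with the GC trend removed) and Nfkbib by 0.66 (adjusted p = 0.115; 0.24 with the GC trend removed and 0.40 without vehicle libraries 1 and 2), both with no overlap, and Nfkbia by 0.48 (adjusted p = 0.119). The 22 interferon response genes had a median of -0.07, none called and 1 lower at an unadjusted p under 0.05. Marker sums of immune cells overlapped between groups, and vehicle library 6 was the highest in 3 of those sums; their part in these values was not tested.

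Metabolic and proteostasis genes differed by small amounts. Glycolysis and lactate genes (25, median 0.06), HIF pathway genes (24, 0.02), tricarboxylic acid cycle genes (25, -0.10) and fatty acid genes (26, -0.02) held no called gene; 2, 4, 1 and 1 of them were higher and 1, 1, 2 and 2 lower at an unadjusted p under 0.05. Slc16a3, the lactate exporter, had no overlap, at 38.8, 29.8, 49.3, 48.2 and 48.97 scaled FPKM under vehicle and 53.9, 61.4, 67.6, 88.6 and 69.2 under MDL-800 (0.66, adjusted p = 0.101; 0.33 with the GC trend removed), and Ddit4, a hypoxia- and glucocorticoid-induced inhibitor of mTORC1, differed by 0.98 (adjusted p = 0.139). Respiratory chain genes split within complexes. ATP synthase had 5 of 19 genes lower and 1 higher at an unadjusted p under 0.05 (median -0.08); its catalytic beta subunit gene Atp5b read 328, 353, 352, 297 and 294 scaled FPKM under vehicle and 243, 245, 247, 243 and 289 under MDL-800, all MDL-800 libraries being lower (-0.35, adjusted p = 0.0895). Complex I had 6 of 36 higher and 6 lower (median -0.06). Uqcr11, a small subunit of complex III, read 37.2, 37.3, 50.6, 72.9 and 63.1 scaled FPKM under vehicle and 104, 79.5, 152, 143 and 126 under MDL-800 (1.21, adjusted p = 0.0608), while Uqcrc2, a core subunit of the same complex, differed by -0.33 (adjusted p = 0.124). Cholesterol synthesis (22 genes, median -0.07) had 4 genes higher and 2 lower at an unadjusted p under 0.05. Scap, the escort of the sterol-sensing factors, differed by 0.64 (adjusted p = 0.0743), and the pathway enzyme gene Fdps by -0.40 (adjusted p = 0.151), each with no overlap.

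Heat shock chaperones had a median of -0.13 over 26 genes (-0.01 without vehicle libraries 1 and 2), none called, 5 higher and 7 lower at an unadjusted p under 0.05. Bag3, a co-chaperone of selective autophagy, had no overlap, at 23.5, 26.1, 26.5, 23.98 and 27.5 scaled FPKM under vehicle and 29.2, 38.6, 30.2, 34.7 and 36.1 under MDL-800 (0.39, adjusted p = 0.0846; 0.21 with the GC trend removed), and Cct3, a subunit of the cytosolic chaperonin, differed by -0.40 (adjusted p = 0.101). The proteasome median was -0.10 over 35 genes, with 2 higher and 4 lower at an unadjusted p under 0.05, and the unfolded protein response median was -0.06 over 28, with 2 higher and none lower. No gene of either was called. For autophagy (35 genes, median -0.04) and lysosome genes (39, -0.03), 5 and 3 were higher and 3 and 1 lower at an unadjusted p under 0.05, with none called. Gaa, the lysosomal alpha-glucosidase, came closest, at 24.4, 19.7, 25.1, 28.7 and 32.2 scaled FPKM under vehicle and 37.04, 41.1, 41.5, 45.9 and 46.05 under MDL-800 (0.69, adjusted p = 0.0519; 0.34 with the GC trend removed), with every MDL-800 library above every vehicle library. Of 45 DNA repair genes Rad23b was the 1 called, 3 were higher and 3 lower at an unadjusted p under 0.05, and the median was -0.08. Atr, the kinase of stalled replication forks, had no overlap in the other direction, at 12.8, 15.3, 14.2, 13.7 and 12.3 scaled FPKM under vehicle and 11.6, 10.6, 10.2, 12.2 and 12.1 under MDL-800 (-0.25, adjusted p = 0.212; -0.15 with the GC trend removed). Oxidant defence and NRF2 genes (31, median 0.00) had 2 higher and 3 lower at an unadjusted p under 0.05. Gpx3, a secreted glutathione peroxidase, differed by 0.57 (adjusted p = 0.115) and Prdx1, a cytosolic peroxiredoxin, by -0.26 (adjusted p = 0.142; -0.15 with the GC trend removed). Of 46 histone acetylation and methylation enzymes, none was called, 6 were higher and 3 lower at an unadjusted p under 0.05, and the median was 0.01. Kmt2d, a histone H3 methyltransferase of enhancers, differed by 0.31 (adjusted p = 0.107), and by 0.01 with the GC trend removed.

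Over the 52 pathway and family lists of at least 4 tested genes, cell type marker lists not counted, 47 had a median within ±0.15, 48 with the GC trend removed and 44 without vehicle libraries 1 and 2. A gene called higher was present in 8 lists, 11 such members in all, and no list held a gene called lower. Over all genes tested, 0.232% were called higher and 0.0183% lower. The members of the lists were not summed, so no share is set beside these. The 3 lists with a median above 0.3 were the histones, the immediate early genes and the clock genes. Of these 52, the lowest medians belonged to osmotic response and ion transport (-0.14 over 15 genes) and to the 4 Y-linked genes (-0.13). Among the marker lists, the medians of skeletal muscle (-0.54 over 12 genes) and B and plasma cells (-0.24 over 10) were lower. Without vehicle libraries 1 and 2 these 2 medians were -1.52 and -0.37. The median of chondrocytes (0.35 over 11 genes, 0.02 with the GC trend removed) was above that of the clock genes.

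**Figure D4:**
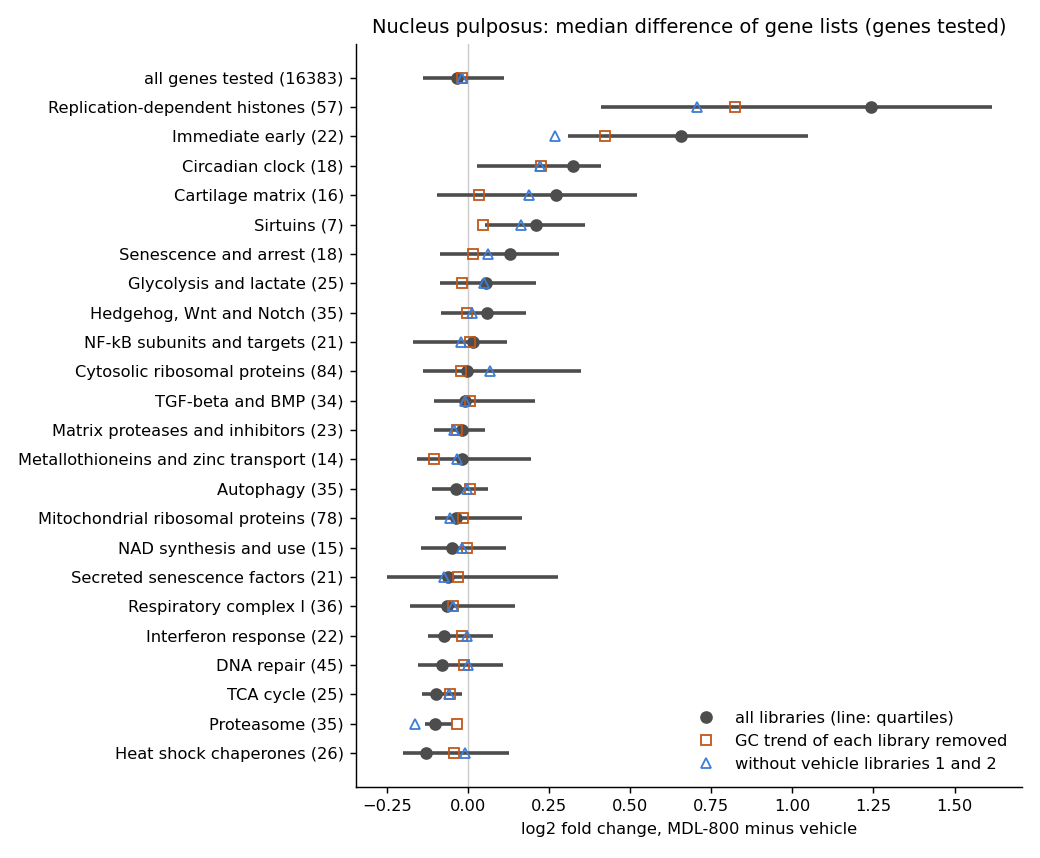
Median log2 fold change, MDL-800 minus vehicle, of 23 gene lists and of all genes tested (filled circle, with a line from the lower to the upper quartile of the genes), with the number of genes tested in brackets. Open squares give the median with the GC trend of each library removed and open triangles the median without vehicle libraries 1 and 2. Histones lie farthest from 0 in all 3 (1.24, 0.82 and 0.71), and most other lists lie within 0.15 of 0.

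Differences followed the GC content of the gene across the whole table. The median log2 fold change was -0.10 over 689 expressed genes under 40% GC, -0.11 from 40% to 45%, -0.09 from 45% to 50%, -0.01 from 50% to 55%, 0.20 over 2815 genes from 55% to 60%, and 0.44 over 545 genes at 60% or more, where 92.1% of the genes were above 0. Without vehicle libraries 1 and 2 the medians of the top 2 bins were 0.10 and 0.26, and in the annulus fibrosus the top bin was at 0.10. Of the 37 expressed genes called higher, 17 were in the bin from 55% to 60% and 14 in the bin above. Mt1, Mt2, Rplp2 and Snhg8 had exon GC contents of 54.3%, 53.6%, 54.3% and 47.0%, and their differences with the GC trend removed were 1.23, 1.97, 1.78 and 1.54. Several GC-rich called genes shrank: at 60% GC or more, Ltbp3 went from 0.77 to 0.33, Lzts2 from 1.05 to 0.54, Gadd45g from 1.05 to 0.62, Zbtb4 from 0.56 to 0.12 and Pcbp4 from 0.44 to 0.00. Over the 38 genes called higher, the median ratio of the difference with the GC trend removed to that without was 0.67. Of the 63 genes described here that were not called, 24 shrank by over 1.5 times with the GC trend removed and 15 without vehicle libraries 1 and 2. Lengths showed no such slope: the library slopes on transcript length differed by 0.000407 between groups (exact two-sided permutation p = 0.952), and bins of 300 nt or longer had medians of -0.05 to -0.01. The 275 expressed genes under 300 nt departed from this, with a median of -0.24 and 35.3% above 0. Their median was -0.33 with the GC trend removed and -0.17 without vehicle libraries 1 and 2, and their median 95% half-width was 1.145.

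**Figure D5:**
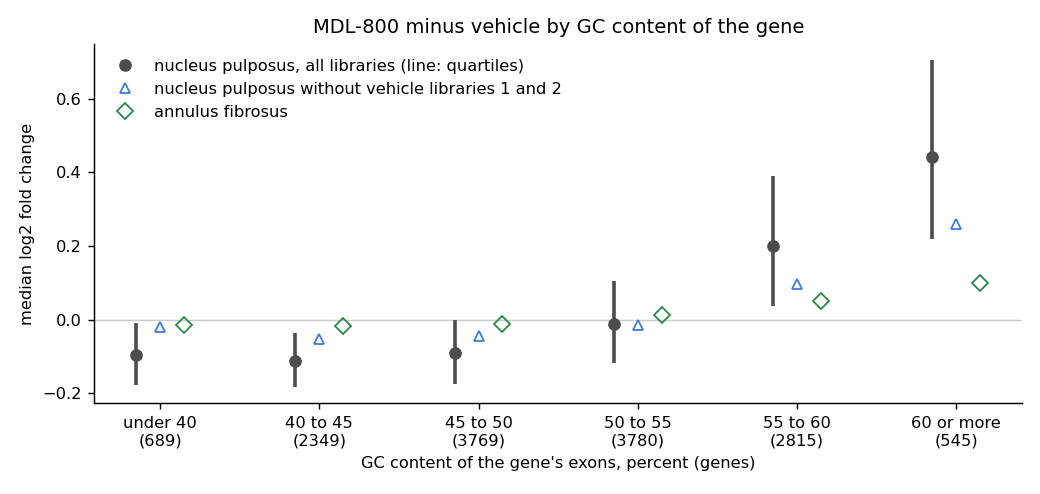
Median log2 fold change, MDL-800 minus vehicle, of expressed genes binned by the GC content of their exons, with the number of genes in brackets. Circles are the nucleus pulposus with all libraries (lines are quartiles of the genes), triangles the same without vehicle libraries 1 and 2, and diamonds the annulus fibrosus; the nucleus pulposus medians run from -0.11 to 0.44 and are smaller in the other 2 series at the GC-rich end.

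Among protein-coding genes of at least 5 FPKM with no overlap but no call, the largest rises were Hist1h4d, Dpm3, Junb, Rpl36 and Hist1h4f. Dpm3, an anchor of dolichol-phosphate mannose synthase, read 1.68, 1.59, 10.8, 15.99 and 20.7 scaled FPKM under vehicle and 43.6, 37.6, 65.4, 68 and 51.6 under MDL-800 (2.75, adjusted p = 0.0749; 1.70 without vehicle libraries 1 and 2). Rpl36, a ribosomal protein gene, read 23.7, 23.1, 87.9, 172 and 143 scaled FPKM under vehicle and 304, 305, 512, 486 and 418 under MDL-800 (2.57, adjusted p = 0.0743; 1.61). In both, vehicle libraries 1 and 2 were far below the other vehicle libraries. The largest drops in level of this kind were smaller: Gm9774 (-1.55, adjusted p = 0.0885), Nrep (-0.88, adjusted p = 0.0858), Nme1 (-0.61, adjusted p = 0.23), Pfdn4 (-0.50, adjusted p = 0.102) and Fam114a1 (-0.48, adjusted p = 0.108). Nrep, a neuronal regeneration related protein, read 5.06, 6.94, 8.66, 5.00 and 5.05 scaled FPKM under vehicle and 2.67, 1.74, 4.28, 2.33 and 3.55 under MDL-800. Its vehicle libraries 1 and 2 did not stand apart, and without them the difference was -0.89. Nme1, a nucleoside diphosphate kinase, was high in vehicle library 3 (28.6 FPKM against 13.5 to 16.4 in the other vehicle libraries).

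Beside the nucleus pulposus values, the same fit in the annulus fibrosus called no gene (limma; 270 at an unadjusted p under 0.05, 1.65%). The test of the difference between the tissues in the effect of MDL-800 called none either (611 at an unadjusted p under 0.05, 3.73%), so no gene is shown to respond in the nucleus pulposus alone. For the leading genes the annulus fibrosus log2 fold changes were 0.51 for Rplp2, 0.55 for Snhg8, 0.61 for Ubald2, 0.31 for Chst12, 0.46 for Gadd45g, 0.19 for Sik1 and 0.16 for Sirt6, beside 1.85, 1.46, 1.63, 1.02, 1.05, 0.70 and 0.68 in the nucleus pulposus, and none of these differences between tissues passed the test. Cldn19 was -0.73 in the annulus fibrosus, the opposite sign to the nucleus pulposus. The medians of 146 immunoglobulin variable genes (-0.24 and 0.50) and 11 constant genes (-0.57 and 0.74) also differed in sign between nucleus pulposus and annulus fibrosus, with no gene called in either tissue.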

How the data were processed

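Total RNA of 20 disc libraries was sequenced, and the values used here are the FPKM (fragments per kilobase of transcript, relative to the fragments mapped) that the authors deposited in 1 table for all libraries. Reads were aligned with STAR 2.7.11b to mm10, per the submitters' processing notes; the program that assigned reads to genes, its strand setting and its annotation are not given in the sources used here. The table holds 51789 genes and 0 genes named with the mitochondrial prefix mt-, and 0 of its columns went unused. Of these genes 51596 matched GENCODE M21, which supplied GC content, length and position. The steps between low FPKM values were read in single-exon genes with 1 transcript of 400 to 1200 nt. They fitted best with 180 to 190 nt taken off the transcript length, and the same steps gave each library's estimated depth. How the length of shorter transcripts was handled is not known, so their values are taken as uncertain.

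A factor per library, the median over 11308 genes of its ratio to their geometric means, put the libraries on 1 scale. A gene entered the test when 5 or more of the 20 libraries reached 1 FPKM, and was tested on log2(scaled FPKM + 1), a scale that understates the fold change of low genes, with limma 3.58.1 in R 4.3.3 (trended variance, 10 nucleus pulposus libraries, Benjamini-Hochberg adjustment over all genes tested, two-sided). Called means an adjusted p under 0.05. The GC trend of a library was removed with a lowess curve of span 0.4. Scripts were tested on simulated data. Figures were drawn with matplotlib 3.10.9 under Python 3.11.15. The genes named are Sirt6; up to 20 rises and 10 falls by log2 fold change among called genes of at least 5 FPKM without overlap; up to 3 members of each list by p and its most abundant member where needed; and up to 5 uncalled protein-coding genes without overlap in each direction. Others were named after their values were seen, to account for each called gene. One gene that the rule names is not reported here. The comparison, the gene lists and the GC slope were chosen with earlier results of these data known. Lists therefore carry no test, and the p-values of the GC slope are no independent test. Alternatives covered the pseudocount, the filter, the scaling, the variance model, covariates, GC and length trends and each library left out; those without vehicle libraries 1 and 2 or 1, 2 and 6 were added after the data were seen.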

Additional observations from a re-analysis of the deposited data

Results flagged for a closer look

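In 17 of 255 groups of 5 libraries, 1 library lay far from the other 4 by Dixon's test at 95%, which chance gives in about 1 in 20 groups. Among library measures, vehicle library 6 had 14185 genes at 1 FPKM or more (13645 to 13748 in the other vehicle libraries) and a B and plasma cell marker sum of 956 FPKM (157 to 314), and vehicle library 3 had a skeletal muscle marker sum of 1919 FPKM (15.3 to 192). Vehicle library 1 had a Schwann cell and axon marker sum of 100.5 FPKM (123 to 131). The osteoblast and osteocyte sum was 200.4 FPKM in MDL-800 library 19 (41.7 to 63.4), and the adipocyte sum was 29.9 FPKM in MDL-800 library 18 (2.13 to 10.1).

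Single vehicle libraries stood out for Gm14303 (48.4 FPKM in library 6, with the other 4 listed at 0), Nme1 (28.6 in library 3, against 13.5 to 16.4), Col2a1 (230.8 in library 1, against 87.0 to 128), Gadd45b (35.9 in library 2, against 17.4 to 19.0) and Fdps (24.6 in library 1, against 16.6 to 18.8). Single MDL-800 libraries stood out for Gm42791 (6.00 FPKM in library 20, against 2.25 to 3.22), Rad23b (83.7 in library 18, against 71.7 to 75.1), Nfkbib (12.1 in library 20, against 8.27 to 9.23), Cct3 (56.7 in library 22, against 43.2 to 46.5), Per2 (9.89 in library 18, against 5.22 to 5.85) and Atp5b (289 in library 22, against 243 to 247). In Nfkbib, Rad23b and Gm42791 the other 4 MDL-800 libraries also lay above every vehicle library. No named gene passed a test of a difference between the tissues in its response to MDL-800.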

How the results depend on the processing

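The sign of the difference held for the called genes tested in every alternative and in each fit without 1 library, except Pcbp4 (-4e-04 with the GC trend removed), whereas the number of calls moved widely. From 41 called (38 higher, 3 lower), the count stayed within 1.5 times for pseudocounts of 0.1 and 0.5 (34 and 40), upper-quartile scaling (31), quantile normalization (49), robust moderation (54) and library weights (39). It was 16 (11 and 5) with no filter on low values, 82 (78 higher) for a mean of at least 1 FPKM, 81 (80 and 1) over protein-coding genes, 18 (15 higher) with no scaling and 18 (16 higher) without the variance trend. It was 4 (3 and 1) with all 4 groups in the fit, 3 (1 higher) with the GC slope as covariate, 23 (16 and 7) with the GC trend removed and 26 (19 and 7) with GC and length trends removed. With annulus fibrosus or red blood cell markers as covariate it was 13 (11 higher) and 15 (13 higher). Leaving out 1 library gave 2 to 189 called, 0 to 179 higher and 2 to 11 lower. The alternatives added after the data were seen gave 11 (6 and 5) without vehicle libraries 1 and 2, 9 (4 and 5) when the GC trend was removed as well, 3 (2 and 1) without vehicle libraries 1, 2 and 6, and 1 (0 higher, 304 at an unadjusted p under 0.05, and 1 lower) with the GC slope as covariate and without vehicle libraries 1 and 2. Some of these fits also tested a different number of genes or used fewer libraries. The cause of the moving counts was not tested.

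Sirt6 was never called, with a log2 fold change of 0.311 to 0.787 and an adjusted p of 0.0633 to 0.648 over 17 alternatives, and 0.544 to 0.763 with 1 library left out. The GC slope difference stayed past the threshold, at 0.182 to 0.265 with 1 library left out. The length slope difference, 0.000407, was near 0 throughout: -0.00367 for a mean of at least 1 FPKM, -0.00216 after quantile normalization, and -0.00337 to 0.00605 with 1 library left out. Differences of uncalled genes that changed sign were Acan (-0.0043 after quantile normalization, and -0.0065 to 0.248 with 1 library left out, lowest without MDL-800 library 20), and, with the GC slope as covariate, Ier2 (-0.159), Fos (-0.865) and Cdkn1a (-0.359). Fos was -0.118 without vehicle libraries 1 and 2, -0.207 with the GC trend removed as well and -0.321 without vehicle libraries 1, 2 and 6; Cdkn1a was -0.0956, -0.14 and -0.306 in the same 3. Cdkn2a was -0.033 with the GC trend removed, -0.0229 with GC and length trends removed, -0.0315 without vehicle libraries 1 and 2 and the GC trend, and -4e-04 without vehicle libraries 1, 2 and 6. Without vehicle libraries 1 and 2 and with the GC slope as covariate, Sirt2 was -0.0331, Col11a1 0.24, Acan -0.0726, Slc16a3 -0.127 and Hist1h1c -0.195.

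In the annulus fibrosus 1 gene was called without MDL-800 library 25 or 29, and the difference between tissues had 1 call without annulus fibrosus MDL-800 library 30 (limma); every other alternative gave 0. No paired analysis was possible because the vehicle and MDL-800 nucleus pulposus libraries share no replicate number. Numbers are shared between tissues of 1 treatment, and 3 of 8 same-numbered pairs had deviations correlated above 0.1, so they were not taken as pairs; a fit of the tissue difference with the number as a block called 0 genes, with 726 at an unadjusted p under 0.05.

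These data are limited to FPKM without counts, 5 libraries a group, bulk tissue and a GC slope that moves with treatment. A log2 fold change under about 0.29 in size lies within the median 95% half-width. Short and duplicated transcripts are the least certain.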

Other observations

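Several housekeeping families had medians slightly below 0 and no called gene, and the first 3 lay closer to 0 with the GC trend removed. Of 27 nuclear pore genes, 6 had a log2 fold change above 0, 5 were lower and 1 higher at an unadjusted p under 0.05 (limma), and the median was -0.09 (-0.11 without vehicle libraries 1 and 2, -0.03 with the GC trend removed, against -0.02 over all genes). Translation factors had a median of -0.12 over 37 genes (-0.045 with the GC trend removed), with 3 higher and 3 lower at an unadjusted p under 0.05, and kinesins and dyneins a median of -0.08 over 47 genes (-0.036 with the GC trend removed), with 1 higher and none lower. The 349 zinc finger genes named Zfp had a median of -0.08 (-0.02 with the GC trend removed), with Zfp64 the 1 called, 31 higher and 25 lower at an unadjusted p under 0.05. RNA polymerase II subunits, with a median of -0.04 over 13 genes, had an upper quartile of 0.56, and 4 of them were higher and 2 lower at an unadjusted p under 0.05. Mechanosensing and caveola genes had a median of 0.06 over 18 genes, and 3 were higher and none lower at an unadjusted p under 0.05.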
